A study of Mus musculus with 12 samples.

Results

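The 10 genes G6pdx, H6pd, Pgls, Pgd, Rpe, Rpia, Tkt, Taldo1, Prps1 and Prps2 encode enzymes of the pentose phosphate pathway and of the synthesis of phosphoribosyl pyrophosphate (PRPP). They were chosen by gene symbol, and all 10 were found among the 56748 genes of the table, each under 1 Ensembl identifier. RNA was sequenced from the mouse retina before and after translating ribosome affinity purification (TRAP), in which ribosomes that carry an HA tag are pulled down together with their mRNA. The tag comes from the Ribo-Tag allele and is switched on by Cre recombinase. All mice were homozygous for Ribo-Tag and carried the rod Cre line i75, a transgene driven by the rhodopsin promoter, so that the pulldown held mRNA from rods (called rods here). The input was total RNA of the retinal lysate (called retina here). Control mice carried 1 floxed Pkm2 allele and are therefore heterozygous in rods, although their libraries are titled wild type, and in Pkm2Rodko mice both alleles were floxed. Both genotypes thus shared Cre, Ribo-Tag, at least 1 floxed allele and the perfusion with cycloheximide, a drug that holds ribosomes on mRNA. The mice were 2 weeks old according to the deposited description and 2 months old according to the methods. There were 3 libraries in each of 4 groups, 12 in all.

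The pentose phosphate pathway branches off from glycolysis at glucose 6-phosphate. Its oxidative arm yields NADPH and a pentose phosphate, and its non-oxidative arm exchanges carbon between pentose phosphates and glycolytic intermediates. PRPP synthetases activate ribose 5-phosphate for the synthesis and salvage of nucleotides and NAD. In rods, NADPH is used among others to reduce all-trans-retinal after light exposure and to keep glutathione reduced.

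Totals ranged from 13458890 to 22790074 reads per library. Levels are given as RPM, the reads of a gene per 1000000 reads of its library after the scaling named below. Pkm, the targeted gene, was read at 3606 to 3895 RPM in control rods and at 1565 to 1689 in Pkm2Rodko rods, and the log2 difference was -1.20 (limma, adjusted p = 5.36e-05). In retina the corresponding ranges were 1474 to 1601 and 940.4 to 971.0, with a log2 difference of -0.65 (limma, adjusted p = 0.0219). Without a variance trend neither call of Pkm passed (limma, adjusted p = 0.0784 in rods and 0.277 in retina). The call in retina was also lost with at least 10 reads in every library (limma, adjusted p = 0.0933), with the replicate number as a block (limma, adjusted p = 0.157) and without any 1 of 5 of the 6 retina libraries, the exception being control replicate 2, and all of these fits kept a difference below 0. Each of the 16 rod markers was at a higher level in the rod libraries, with a median log2 difference of 1.94 to retina in control, and 77 of 79 markers of other retinal cells were below 0, with a median of -2.85. Rod markers alone summed to between 244994 and 261752 RPM in control rods, against 57954 to 67334 in control retina. The values of rods and retina were therefore brought to a common scale by TMM (trimmed mean of M-values), and every level below is in TMM-scaled RPM unless it is stated per kilobase. By TMM the median of all genes tested was -0.37 in rods against retina of control, and scaling by total reads alone moved it to -0.76.

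The promoters of 4 of the genes are printed first because the results turn on the pairs G6pdx and Pgd, the NADPH-forming dehydrogenases, and Prps1 and Prps2, the paralogous PRPP synthetases. Each sequence runs 5′ to 3′ on the strand of the gene, from 250 bases before to 50 bases after the RefSeq start, on build GRCm38.p6. G6pdx lies at chrX:74428831-74429130 (minus strand), Pgd at chr4:149166033-149166332 (minus strand), Prps1 at chrX:140456353-140456652 (plus strand) and Prps2 at chrX:167382700-167382999 (minus strand). Capitals mark matches to TGACNNNGC, the core of the antioxidant response element bound by NRF2, or to TAATCC, the site of the photoreceptor factor CRX, on either strand.
G6pdx: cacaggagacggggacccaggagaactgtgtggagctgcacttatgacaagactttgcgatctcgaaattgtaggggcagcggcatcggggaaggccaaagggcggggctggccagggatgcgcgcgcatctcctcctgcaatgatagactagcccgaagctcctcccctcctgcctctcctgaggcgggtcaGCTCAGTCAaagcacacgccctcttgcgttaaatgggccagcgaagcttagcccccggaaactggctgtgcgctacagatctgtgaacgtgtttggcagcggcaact
Pgd: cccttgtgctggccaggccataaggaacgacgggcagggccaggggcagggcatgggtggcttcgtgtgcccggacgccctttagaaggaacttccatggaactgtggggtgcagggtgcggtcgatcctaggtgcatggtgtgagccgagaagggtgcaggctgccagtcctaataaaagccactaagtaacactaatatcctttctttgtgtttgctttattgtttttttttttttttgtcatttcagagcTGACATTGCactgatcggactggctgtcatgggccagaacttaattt
Prps1: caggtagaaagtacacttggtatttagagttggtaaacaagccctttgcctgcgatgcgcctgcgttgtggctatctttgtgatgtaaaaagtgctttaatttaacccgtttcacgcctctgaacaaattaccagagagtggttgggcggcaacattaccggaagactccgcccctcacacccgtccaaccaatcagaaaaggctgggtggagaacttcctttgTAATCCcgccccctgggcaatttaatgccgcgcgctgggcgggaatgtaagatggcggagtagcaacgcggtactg
Prps2: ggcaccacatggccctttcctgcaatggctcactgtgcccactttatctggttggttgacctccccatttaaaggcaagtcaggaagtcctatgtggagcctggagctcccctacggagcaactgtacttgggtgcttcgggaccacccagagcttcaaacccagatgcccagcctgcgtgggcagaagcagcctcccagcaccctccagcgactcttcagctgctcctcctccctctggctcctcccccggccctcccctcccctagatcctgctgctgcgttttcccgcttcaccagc
The match in G6pdx begins 57 bases before the start, the one in Pgd 3 bases after it and the one in Prps1 26 bases before it, and Prps2 holds none. Pgd has another RefSeq promoter at chr4:149166656-149166955, upstream of the printed one on the minus strand, which holds no match. The window printed for Pgd is thus the one with the match, and no measurement chose it over the upstream one. G and C made up 60.7% of that upstream window and 51.3% of the printed one. The match in the printed Pgd window lies past the start, within transcribed bases rather than upstream of them. No Pgd window thus held a match upstream of its start, and whether the printed window acts as a promoter was not tested. Which of these Pgd starts is used in rods or retina was not tested. Over 32851 promoters of the same length, 12.4% held the NRF2 motif and 7.06% held the CRX motif. TGCTGAC, a core of the site of the rod factor NRL, occurred in 4.67% of all promoters and in none of the 11 promoters of the 10 genes, and the promoters of the other 6 genes held none of the 3 motifs. The NRF2 and NRL motifs can overlap in the letters they share. A match is only a run of letters in this window, and no measurement of binding was made here.

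Compared to retina, the rod pulldown of control held more mRNA of 6 of the 10 genes (Taldo1, Prps1, G6pdx, Rpe, Pgd and Pgls) and less of 3 (Tkt, H6pd and Prps2). The difference for Rpia was not detectable. Among all 25584 genes tested by the same limma fit, 23.5% were called higher and 35.5% lower. The median log2 difference of the 10 genes was 0.90, beside -0.37 for all genes. In Pkm2Rodko the same 6 genes were called higher and the same 3 lower, beside 23.9% of all genes called higher and 35.1% called lower, with a median of 0.82 for the 10 genes and -0.32 for all genes. With scaling by total reads alone the median in control was 0.35 for the 10 genes and -0.76 for all genes. The log2 differences in control then fell to 0.81 for Taldo1, 0.57 for Prps1, 0.44 for G6pdx, 0.40 for Rpe, 0.38 for Pgd and 0.32 for Pgls. That of Tkt moved further from 0, to -2.36. Sizes and SE below are those after TMM scaling. The pulldown measures a share of mRNA, so fewer cells of a type and less RNA per cell cannot be told apart in these values. Rods stand here for ribosome-bound mRNA and retina for total RNA of the lysate. Binding to ribosomes and the pulldown step therefore cannot be told apart from the cell type either.

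**Figure D1:**
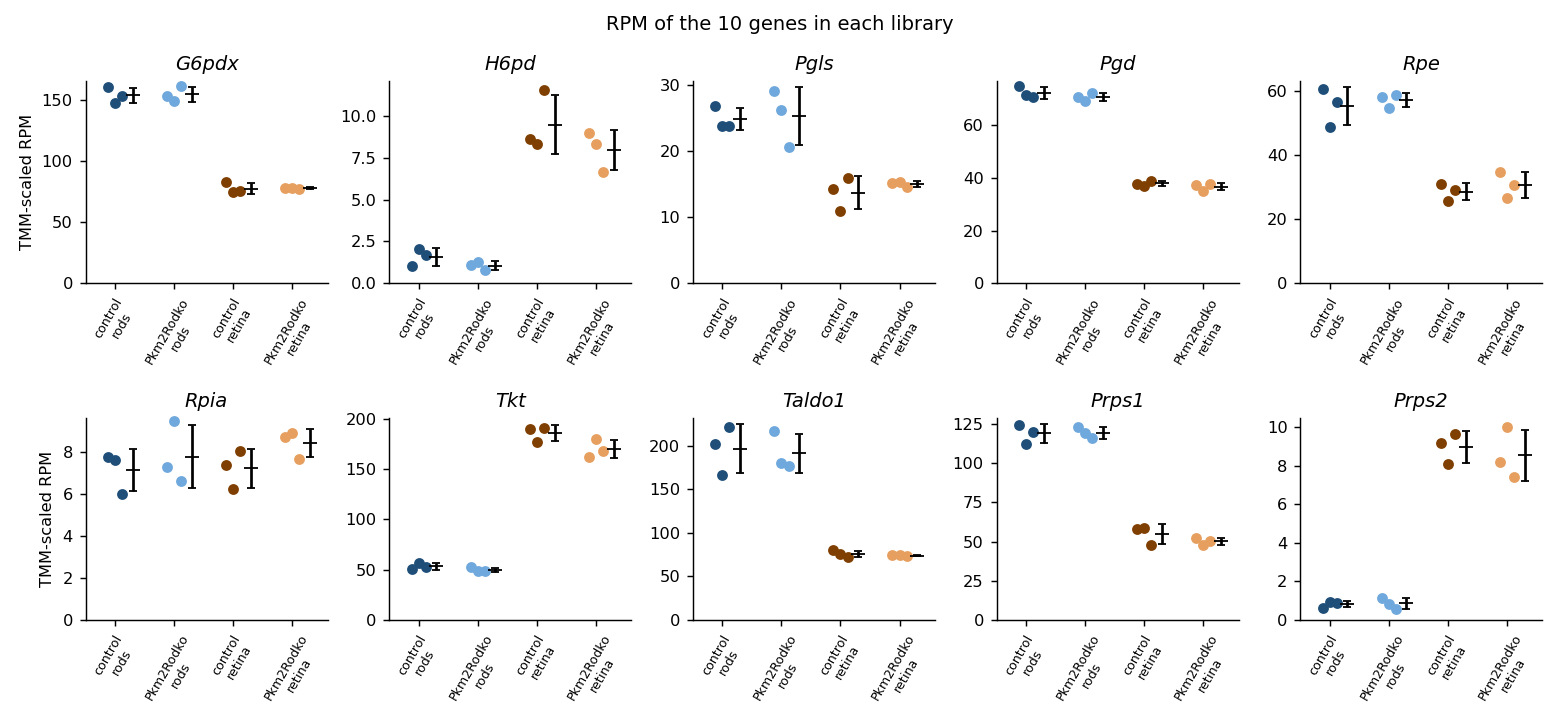
Level of each gene in every library, in TMM-scaled RPM on a linear axis that starts at 0. Points are libraries and black bars are the mean ± SD of the 3 libraries of a group. In the panel of Rpia the rod and retina libraries overlap.

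G6pdx encodes glucose-6-phosphate dehydrogenase, the first and rate-limiting enzyme of the oxidative arm. It was read at 160.9, 148.2 and 153.7 RPM in control rods and at 82.7, 74.9 and 75.3 in control retina. Pkm2Rodko rods gave 153.4, 149.9 and 161.5, and Pkm2Rodko retina 78.5, 78.3 and 77.0. The lowest rod library thus lay well above the highest retina library. In control the log2 difference between rods and retina was 0.99 ± 0.07 (SE), a 1.99-fold higher level (limma, adjusted p = 7.18e-09).

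Pgd encodes 6-phosphogluconate dehydrogenase, which forms the other NADPH of the arm. Its values were 74.9, 71.5 and 70.7 in control rods, 37.8, 37.1 and 38.9 in control retina, 70.6, 69.3 and 72.2 in Pkm2Rodko rods and 37.3, 35.1 and 37.6 in Pkm2Rodko retina. The rod libraries formed a narrow group above the retina libraries, at 1.91-fold in control (log2 0.93 ± 0.07, limma, adjusted p = 2.11e-08). Pgls encodes the lactonase that acts between these dehydrogenases. It was read at 26.8, 23.9 and 23.9 in control rods and at 14.2, 10.96 and 15.9 in control retina, and at 29.1, 26.3 and 20.6 in Pkm2Rodko rods against 15.2, 15.3 and 14.5 in retina. The groups did not overlap, although Pgls varied more between libraries than G6pdx or Pgd, and the log2 difference was 0.87 ± 0.15 in control (limma, adjusted p = 8.94e-05). With scaling by total reads alone the call of Pgls was lost, at 0.32 in control (limma, adjusted p = 0.0769) and 0.16 in Pkm2Rodko (limma, adjusted p = 0.389).

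H6pd encodes the hexose-6-phosphate dehydrogenase of the endoplasmic reticulum, which carries out the first oxidative steps in that compartment. It was low in rods, where the 3 control libraries had 11, 40 and 19 reads and the Pkm2Rodko ones 15, 17 and 14. These reads correspond to 0.998, 2.06 and 1.67 RPM in control rods and 1.08, 1.28 and 0.780 in Pkm2Rodko rods. In retina the values were 8.61, 8.32 and 11.6 in control and 8.98, 8.34 and 6.67 in Pkm2Rodko. Every rod library lay below every retina library, and the log2 difference in control was -2.59 ± 0.28 on the log2(reads + 1) scale (limma, adjusted p = 8.55e-07). H6pd thus differed in the opposite direction from the other 3 genes of the oxidative arm.

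Of the non-oxidative arm, Rpe encodes ribulose-5-phosphate epimerase and Rpia ribose-5-phosphate isomerase, which compete for the same substrate. Rpe was read at 60.7, 48.8 and 56.6 in control rods, 31.0, 25.6 and 29.1 in control retina, 58.2, 54.8 and 58.9 in Pkm2Rodko rods and 34.7, 26.7 and 30.5 in Pkm2Rodko retina. The rod libraries were above the retina libraries, with a log2 difference of 0.95 ± 0.11 in control (limma, adjusted p = 2.25e-06). Rpia was read at 7.80, 7.63 and 5.99 in control rods and at 7.41, 6.23 and 8.07 in control retina. Pkm2Rodko rods gave 7.28, 9.48 and 6.63, and Pkm2Rodko retina 8.73, 8.93 and 7.66. These ranges overlapped. The log2 difference of Rpia was -0.022 in control, with a 95% interval from -0.39 to 0.35 (limma, adjusted p = 0.928), and -0.13 in Pkm2Rodko. Scaling by total reads alone called Rpia lower in rods, at -0.57 (limma, adjusted p = 0.0123) in control and -0.71 (limma, adjusted p = 0.00286) in Pkm2Rodko.

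Transketolase (Tkt) and transaldolase (Taldo1) transfer the carbon units of the non-oxidative arm, and they stood on opposite sides. Tkt was read at 50.4, 56.8 and 52.1 in control rods and at 190.0, 176.6 and 190.9 in control retina, and at 52.3, 48.3 and 48.1 in Pkm2Rodko rods against 161.6, 180.0 and 168.3 in Pkm2Rodko retina. Control rods thus held 3.498-fold less Tkt than control retina (log2 -1.81 ± 0.08, limma, adjusted p = 5.55e-11). Taldo1 was read at 201.3, 166.3 and 221.6 in control rods and at 79.5, 75.5 and 72.4 in control retina, and at 217.2, 180.2 and 176.6 in Pkm2Rodko rods against 74.0, 73.8 and 73.5 in Pkm2Rodko retina. Rods held 2.57-fold more Taldo1 than retina in control (log2 1.36 ± 0.10, limma, adjusted p = 1.34e-08). The rod libraries spread more widely for Taldo1 than the retina libraries did, without overlap.

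The PRPP synthetases also stood on opposite sides. Prps1 was read at 124.7, 112.5 and 120.1 in control rods, 58.0, 58.8 and 47.7 in control retina, 123.4, 119.2 and 116.1 in Pkm2Rodko rods and 52.4, 47.6 and 50.1 in Pkm2Rodko retina. It was 2.18-fold higher in rods of control (log2 1.12 ± 0.09, limma, adjusted p = 2.17e-08). In rods the read numbers of Prps2 were 7, 18 and 10 for control and 16, 11 and 10 for Pkm2Rodko, against 200, 162 and 241 in control retina and 166, 238 and 141 in Pkm2Rodko retina. In RPM these are 0.635, 0.928 and 0.881, then 1.15, 0.828 and 0.557 in rods, and 9.21, 8.07 and 9.68, then 8.19, 10.03 and 7.40 in retina. Prps2 thus had at most 18 reads in any rod library and at least 141 in any retina library, and the log2 difference in control was -3.39 ± 0.27 (limma, adjusted p = 3.10e-08), the largest of the 10 genes in size. No stretch of 50 bases of Prps2 occurs in Prps1, so such a stretch cannot be assigned to both.

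**Figure D2:**
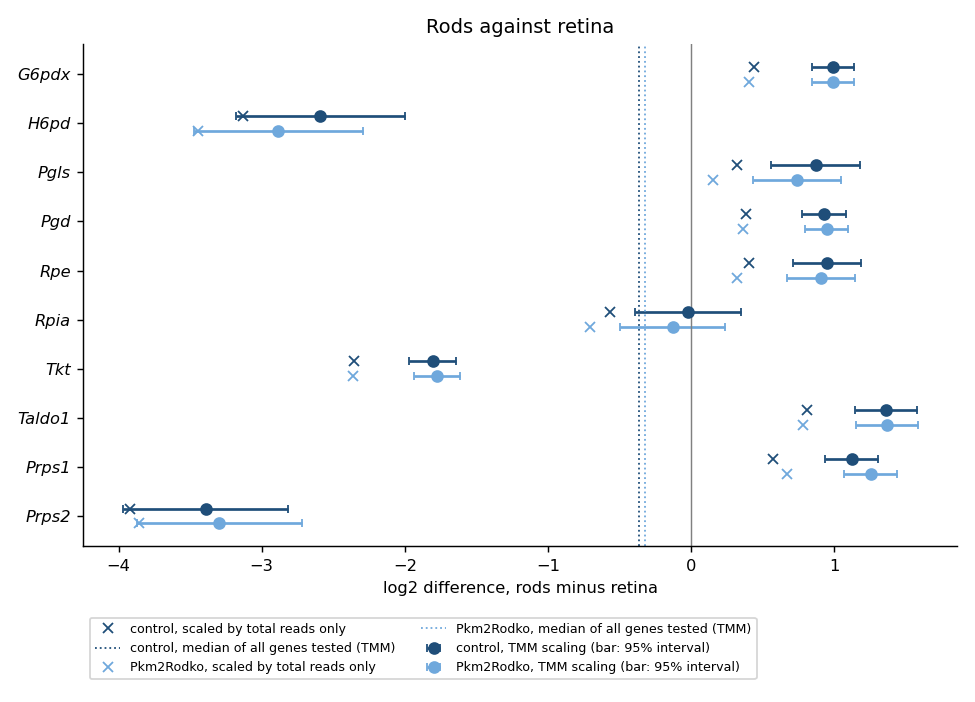
Log2 difference between rods and retina of each gene in control and Pkm2Rodko. Circles with bars are limma estimates with 95% intervals after TMM scaling, crosses are the estimates after scaling by total reads only, and dotted lines mark the median of all genes tested after TMM scaling. Tkt, H6pd and Prps2 lie left of the medians under either scaling, Taldo1 and Prps1 lie furthest right, and Rpia moves from near 0 to below it with the scaling.

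Most markers of other cells were also low in rods. The 11 Müller glia markers summed to between 1109 and 1241 RPM in control rods and between 4821 and 5523 in control retina. Of these, 10 were called lower in rods and Car2 was not called (log2 0.15), and without Car2 the sums were 627.1 to 792.8 and 4421 to 5107. The 12 bipolar markers summed to 735.4 to 760.3 against 1361 to 1443, but 10 of them were called lower, while Otx2 was called higher (log2 0.89) and Prkca was not called (log2 -0.054). Without Otx2 and Prkca, left out after their values were seen, the bipolar sums were 97.9 to 118 in control rods and 839 to 997 in control retina. All 10 amacrine markers were called lower, with sums of 135.7 to 193.1 against 1090 to 1134. No marker of these lists was at 0 in all 3 libraries of a rod group. The median of the 69 markers of cells other than photoreceptors was -2.94 in control, with quartiles of -3.18 and -2.56. H6pd, at -2.59, lay within these quartiles, while Prps2 (-3.39) lay below them and Tkt (-1.81) above them. The part of RNA from other cells in these values was not tested.

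Ratios of reads within a library do not depend on the scaling between libraries, so the pairs were also compared directly. For 1 read of Prps2, control rods held between 121 and 196 reads of Prps1 and control retina between 4.93 and 7.29. For 1 read of H6pd, control rods held between 71.9 and 161 reads of G6pdx and control retina between 6.51 and 9.61. Neither ratio overlapped between rods and retina. Over both genotypes the log2 difference between rods and retina was -4.62 for Prps2 over Prps1, 3.79 for G6pdx over H6pd, -3.16 for Tkt over Taldo1 and 1.01 for Rpe over Rpia. Each of these reached the smallest p that the exact permutation of rod and retina labels within genotype can give (two-sided p = 0.005, adjusted p = 0.03 over 30 tests). That permutation ignored the pairing of rod and retina libraries by replicate number. With labels exchanged only within the 6 pairs, an alternative added after the data were seen, all 6 pairs showed the same direction for each of these ratios, but the exact two-sided p was 0.0312, the smallest that 64 arrangements can give, and none passed after adjustment (adjusted p = 0.188). Tkt exceeded Taldo1 in all retina libraries, by 2.34 to 2.63 reads of Tkt for 1 of Taldo1 in control, and fell short of it in all rod libraries, at 0.235 to 0.341 in control. Pgd over G6pdx was the exception. It lay between 0.460 and 0.482 in control rods and between 0.457 and 0.517 in control retina, and the log2 difference over both genotypes was -0.051 (exact permutation test without pairing, two-sided p = 0.15, adjusted p = 0.265). Without 1 control retina library (replicate 1) that difference was -0.075 and its unadjusted permutation p was 0.025. The summed reads of the oxidative genes over those of the non-oxidative genes were 0.743 to 0.878 in control rods and 0.462 to 0.472 in control retina, without overlap. Tkt weighed most in the non-oxidative sum of control retina, at 185.8 RPM beside 75.8 for Taldo1, 28.6 for Rpe and 7.24 for Rpia. It stood at 53.1 in control rods, whereas Taldo1 and Rpe were higher in rods than in retina. The higher summed ratio in rods thus does not describe a shift of the whole arm. Within 1 genotype, 3 libraries against 3 cannot give a two-sided permutation p below 0.1.

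**Figure D3:**
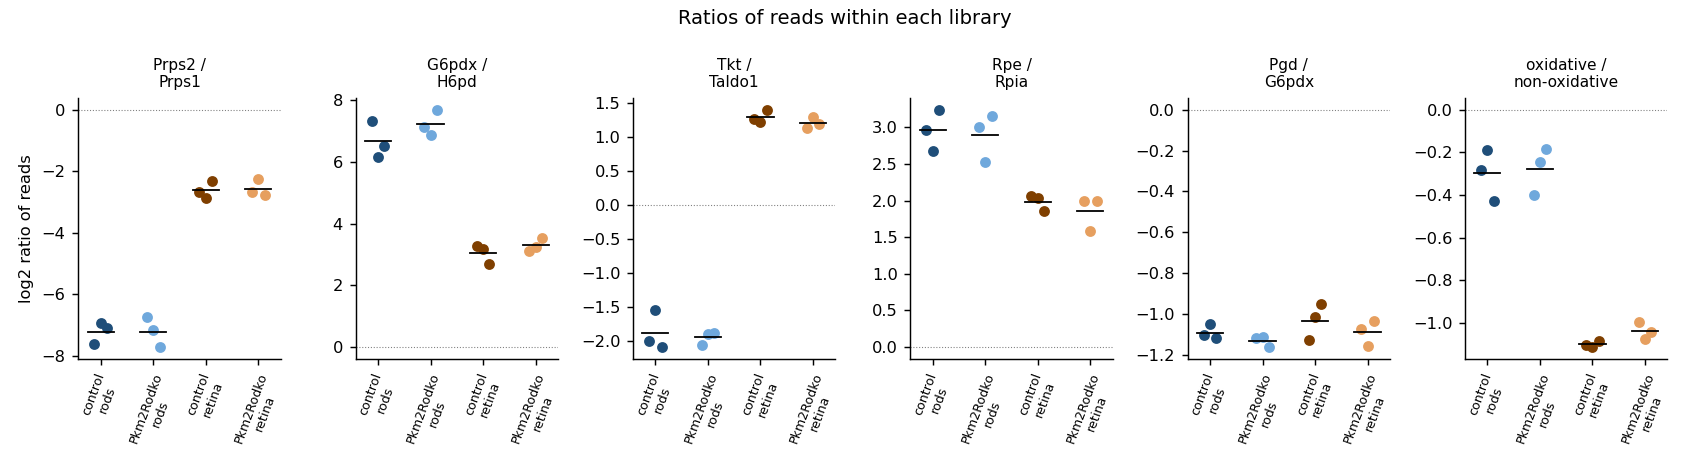
Log2 ratio of reads of gene pairs within each library, and of the summed oxidative over the summed non-oxidative genes. Points are libraries, horizontal lines are group means, and the vertical axis differs between panels. The ratio of Tkt to Taldo1 lies below 0 in rods and above 0 in retina, while Pgd over G6pdx covers a narrow range between -1.16 and -0.952 in all 12 libraries.

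Levels of different genes were compared per kilobase of exon. In control rods Taldo1 was highest at 90.5 ± 12.9 RPM per kilobase of exon (SD, n = 3), followed by Prps1 at 59.8 ± 3.09, G6pdx at 50.1 ± 2.07, Rpe at 17.8 ± 1.94, Pgd at 11.2 ± 0.346, Tkt at 7.22 ± 0.448 and Pgls at 6.59 ± 0.457. Rpia reached 1.33 ± 0.186, H6pd 0.301 ± 0.103 and Prps2 0.210 ± 0.0406. Neighbours in this order did not overlap over the 3 libraries, except Tkt with Pgls and H6pd with Prps2. In control retina the order began with Taldo1 at 34.9 ± 1.63, Prps1 at 27.5 ± 3.13, Tkt at 25.3 ± 1.09 and G6pdx at 25.2 ± 1.43, where Prps1 overlapped with Tkt and Tkt with G6pdx. Rpe (9.18 ± 0.877), Pgd (5.88 ± 0.144), Pgls (3.64 ± 0.671), Prps2 (2.32 ± 0.213), H6pd (1.81 ± 0.343) and Rpia (1.35 ± 0.174) followed, and of these only Prps2 and H6pd overlapped as neighbours. Tkt made up 2.97% ± 0.416 of the summed level of the 10 genes in control rods and 18.4% ± 0.868 in control retina, and Taldo1 36.8% ± 2.82 and 25.5% ± 0.454. After TMM scaling the sum itself was 245 ± 18.2 in control rods, 243 ± 12.99 in Pkm2Rodko rods, 137 ± 5.49 in control retina and 132 ± 1.73 in Pkm2Rodko retina.

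**Figure D4:**
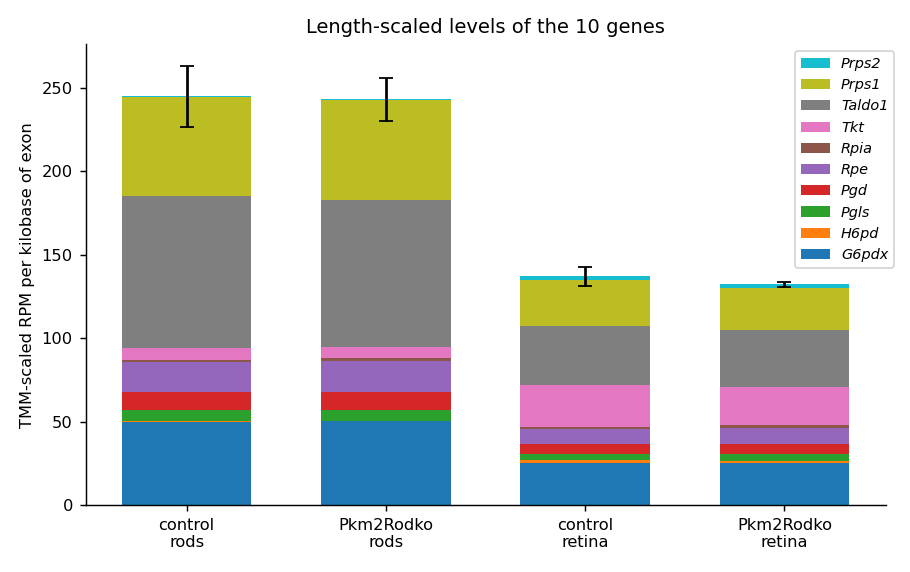
Mean level of the 10 genes per kilobase of exon, stacked for each group, with the SD of the sum over 3 libraries as black bars. The stacks of the rod groups are near 245 and 243 and those of retina near 137 and 132, and the band of Tkt is narrow in rods.

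The genotypes were compared within rods and within retina. None of the 10 genes passed in either fraction, and none had an unadjusted p under 0.05 (limma). The edgeR and DESeq2 tests on the same reads also called none of the 10. For no gene did the 3 Pkm2Rodko libraries lie apart from the 3 control libraries. Of all genes tested, 0.0194% were called in rods and 0.00391% in retina, and 9.89% of genes in rods and 9.29% in retina had libraries that did not overlap between genotypes. In rods the log2 differences ranged from -0.52 (H6pd) to 0.13 (Rpia), and the smallest adjusted p was 0.932 (limma). For the 8 genes other than H6pd and Prps2, the 95% intervals lay between -0.30 and 0.55. The few reads of H6pd and Prps2 in rods gave wide intervals, from -1.34 to 0.29 and from -0.87 to 0.91. In retina the differences ranged from -0.23 (H6pd) to 0.24 (Rpia), with intervals of all 10 genes between -0.58 and 0.56 and a smallest adjusted p of 0.947 (limma).

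G6pdx illustrates the precision, with a genotype difference of 0.015 in rods and a 95% interval from -0.16 to 0.19, on the log2(value + 1) scale. The interval of Taldo1 in rods ran from -0.27 to 0.22, that of Tkt from -0.30 to 0.12 and that of Prps1 from -0.17 to 0.20. These intervals give the range of differences that the 3 libraries per group leave possible, and no limit of detection was computed. The genotype effect in rods did not differ detectably from that in retina for any of the 10 genes (limma interaction, 0 of 10 with an unadjusted p under 0.05, smallest adjusted p = 0.978). That fit called 0% of all 25584 genes, although 1128 had an unadjusted p under 0.05, and DESeq2 called 1 gene, Pkm. The ratios between genes could not pass a genotype test, since 3 libraries against 3 give a two-sided permutation p of 0.1 at best. The 5 ratios of single genes overlapped between genotypes in rods and in retina. The oxidative over the non-oxidative genes overlapped in rods, while in retina they stood at 0.462 to 0.472 in control and at 0.474 to 0.501 in Pkm2Rodko, without overlap.

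**Figure D5:**
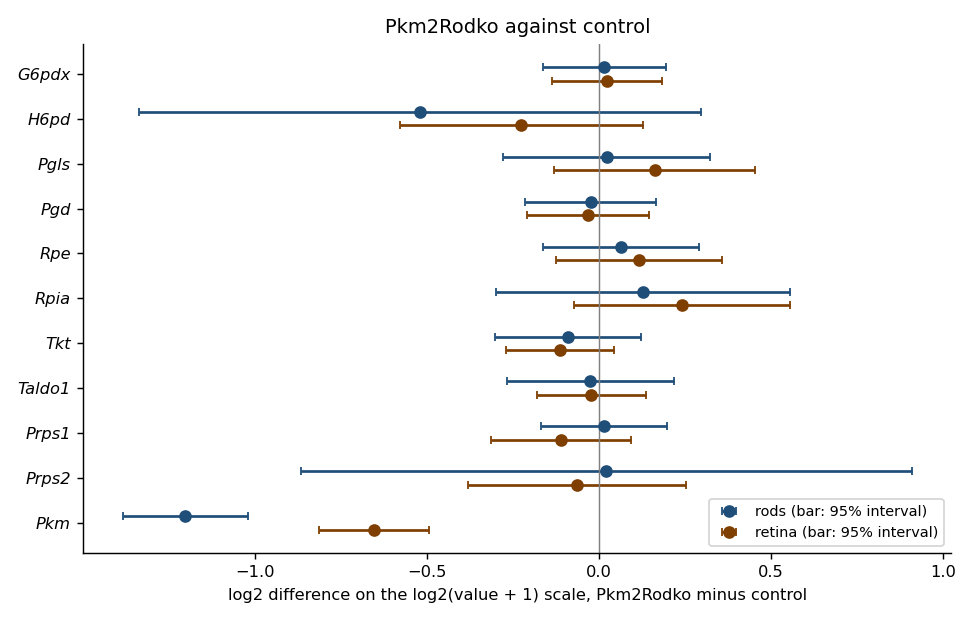
Log2 difference between Pkm2Rodko and control for the 10 genes and Pkm, in rods and in retina, from limma with 95% intervals. All intervals of the 10 genes include 0, and those of Pkm do not.

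Other measures moved with genotype beside these genes. In Pkm2Rodko rods 67 of 79 markers of cells other than rods were below their control level. Their median log2 difference was -0.33, beside 0.0060 for all genes tested, and all 11 Müller glia markers were below 0. Of the genes low in rods, H6pd stood at -0.52, from 11 to 40 reads in control rods, Tkt at -0.091 and Prps2 at 0.021. Müller glia markers summed to 906 to 1060 RPM in Pkm2Rodko rods and to 1109 to 1241 in control rods, or without Car2 to 511.8 to 609.3 and 627.1 to 792.8. The Y-linked transcript Ddx3y had 0 reads in control replicates 1 and 2 of rods and of retina, and 124 and 342 reads in control replicate 3, whereas all 6 Pkm2Rodko libraries held between 153 and 536. G6pdx, Prps1 and Prps2 are X-linked. The part of sex and of other cells in the genotype values was not tested. Nothing states that the libraries of a group came from separate animals, so p-values measure the spread between these libraries.

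Relatives of the 10 genes and enzymes upstream and downstream were described by lists. Of 12 related genes tested, 6 were higher and 1 lower in control rods, with a median of 0.61. Among them Prpsap2, an associated protein of PRPP synthetase, was read at 162.4 ± 1.05 RPM in control rods and 56.4 ± 6.87 in control retina (SD, n = 3; log2 1.53), while its paralog Prpsap1 was at 35.5 ± 5.19 and 36.4 ± 2.68 (log2 -0.045, not called). Dera, deoxyribose-phosphate aldolase, stood at 1.55 and Tigar, a phosphatase known to direct glucose toward the pathway, at 0.88, and both were called higher, as was Shpk, sedoheptulokinase, at 0.95. Prps1l3, named for its sequence shared with Prps1, stood at 0.47 in control and 0.78 in Pkm2Rodko.

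Of 14 genes that use PRPP or follow in nucleotide synthesis and salvage, 7 were higher and 4 lower in control rods (median 0.39). Hprt, the purine salvage enzyme, was read at 224.8 ± 20.2 in control rods and 122.7 ± 4.50 in control retina (log2 0.87), and Dhodh, of pyrimidine synthesis, stood at 0.98. Naprt and Qprt, which make NAD precursors from nicotinic and quinolinic acid, were called lower at -2.71 and -2.49, from low levels of 1.39 and 0.339 RPM in retina.

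Of 13 genes listed as other makers of NADPH or NADP, 5 were higher and 6 lower (median -0.14). Which cofactor each listed enzyme uses in retina was not measured, so these counts do not give a capacity to make NADPH. The cytosolic enzymes Idh1, at 88.8 ± 3.41 in control rods and 44.1 ± 4.003 in control retina (log2 1.01), and Me1, at 371.6 ± 10.7 and 203.2 ± 9.69 (log2 0.87), were higher. The mitochondrial malic enzyme Me2 of the same list was also higher (1.21), and its use of NADP rather than NAD was not measured. Me3 (-3.25), Aldh1l1 (-2.80), a marker of glia, and mitochondrial Idh2 (-1.79) were lower. Of 15 enzymes that use NADPH, 11 were higher and 1 lower (median 0.55). The retinol dehydrogenases of photoreceptors stood highest, with Rdh12 at 1076.6 ± 57.0 RPM in control rods against 291.8 ± 57.7 in control retina (log2 1.90), Rdh8 at 230.0 ± 14.0 against 76.8 ± 7.34 (log2 1.58) and Rdh11 at 1.24 on the log2 scale. Dhcr7, of cholesterol synthesis, stood at 1.04. Rdh8 and Rdh12 are themselves photoreceptor genes, so their direction is that of the rod markers.

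Of 10 genes of upper glycolysis, from hexokinases to triosephosphate isomerase with a fructose bisphosphatase, 7 were higher and 1 lower (median 0.51). The hexokinases Hk2 (1.74) and Hk1 (1.66) and the phosphofructokinase Pfkl (1.36) were higher, and Pfkm (-1.57) was lower in rods. In the genotype comparisons none of the genes of these lists passed in rods or in retina. The counts of the lists depended on the scaling. With total reads alone the calls in control changed to 3 higher and 4 lower of the related genes, 3 and 6 of the PRPP users, 4 and 7 of the other NADPH makers, 5 and 4 of the NADPH users, and 4 and 4 of the glycolytic genes, while the 10 genes themselves gave 5 and 4 and all genes 2184 and 12706, against 6001 and 9083 by TMM. Prps1l3 and Shpk were no longer called, and Prpsap1 was called lower. The other list genes named here kept their call and direction in control under either scaling.

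Some reads may be shared with other genes, because the counting rule and its use of strand were not given. In the GENCODE annotation, 10.6% of the 50-base stretches of G6pdx also lie in the overlapping gene Ikbkg, 15.4% of those of Rpe in Kansl1l and 18.9% of those of Pgls in Fam129c. Prps1 shares 9.93% with Prps1l3, which had 307 to 603 reads per library. The retrogene G6pd2 had at most 2 reads in any library, and a processed pseudogene of Taldo1 at most 6.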

How the data were processed

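Poly(A) RNA of 12 libraries (3 for each genotype in rods and in retina) was sequenced, and groups were taken from the sample labels. The table deposited by the authors holds a signal per gene, namely the number of reads divided by a size factor for each library and rounded to 1 decimal. The inverse of the step between values matched the median-of-ratios size factor computed apart for rods and for retina, to within 3.5e-06%, so the fractions were not on a common scale. Division by the step gave whole reads for 100% of positive values, within the rounding. Submitters' processing notes name CASAVA 1.8.2, HISAT2, DESeq2, edgeR and build GRCm39 without roles. The counter, the annotation and the strand setting are not given in the sources used here. Such scaling, like TMM, rests on most genes being equal across libraries, and counting per gene merges the isoforms of Pkm. Between rods and retina of control, 15084 of 25584 genes were called different after TMM scaling, so that condition is in doubt there. All per-sample columns were used, and no pair of replicates came close to sampling noise (lowest chi-square per degree of freedom 7.16).

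Genotypes were compared within each fraction by limma 3.58.1 (R 4.3.3) with a variance trend on log2(value + 1), over genes whose mean value reached 1 in either genotype. Rods and retina, and the difference of the genotype effects, were compared by a limma fit of the 4 groups to log2 of the recovered reads after TMM scaling, with 1 added. Adjusted p-values are Benjamini-Hochberg values over all genes tested, at 0.05, and fold changes on these scales understate the change of low genes. The planned test depended on the unit, and limma was used because the table holds scaled values. The edgeR 4.0.16 quasi-likelihood test on the recovered reads called 4 genes between genotypes in rods and 1 in retina. DESeq2 1.42.0 was the other count test. Ratios were tested by two-sided exact permutation within genotype, without the pairing. The fits were tested on simulated data with known changes. Same-numbered rod and retina libraries deviated together (correlations from 0.194 to 0.434), so the number may pair rods with retina, although no label states it. Libraries of different numbers were not compared in this way. Same-numbered control and Pkm2Rodko libraries did not deviate together (-0.279 to 0.0707). The main limma fit of rods against retina took no account of such pairs. Precision is set by 3 libraries per group.

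Exon lengths (union of exons, GENCODE mouse release 21) were matched by identifier for all 10 genes, and promoters came from RefSeq on GRCm38.p6. Since the files' build differs, no other coordinates were used. Ratios and figures were made in Python 3.11.15 (pandas 2.3.3, numpy 2.4.6, matplotlib 3.10.9). The 10 genes and all lists were chosen with earlier results of these data known. The text names all 10 genes, Pkm, up to 4 called genes of a list with the largest difference between rods and retina in control, and Rdh8, Rdh12, Idh1, Me1, Hprt, Prpsap1, Prpsap2, Tigar, Hk1 and Hk2. Ikbkg, Kansl1l, Fam129c, Prps1l3 and G6pd2 were named for shared sequence, and Ddx3y and Xist as sex-linked transcripts. Car2, Otx2 and Prkca were named after their values were seen. Alternatives were other scalings (RLE, total reads), the count tests, no filter or at least 10 reads in every library, 1 fit of all 12 libraries, a pseudocount of 0.1, no variance trend, the replicate number as a block, 1 read added to both counts of a ratio, and leaving out each library in turn.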

Additional observations from a re-analysis of the deposited data

How the results depend on the processing

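In rods against retina, 8 of the 9 called genes kept their call and direction under every alternative in both genotypes that could be run, and Pgls did so except with scaling by total reads (values in the report). Prps2 was not tested where at least 10 reads were required in every library. No gene of the 10 was called between genotypes under any alternative. The number of genes called in all between genotypes in rods (4) was 17 in 1 fit of all 12 libraries, 8 with the replicate number as a block and 0 without a variance trend (limma, 1090 with an unadjusted p under 0.05, 4 by edgeR and 5 by DESeq2), and 2 to 6 when 1 library was left out. In retina (1) it was 0 with at least 10 reads in every library (659 unadjusted, 1 by edgeR and 1 by DESeq2) and 0 with the replicate number as a block (940 unadjusted), and 0 to 4 when 1 library was left out. The call of Pkm in retina was lost with these alternatives, without a variance trend and without control retina replicate 1 or 3 or any of the Pkm2Rodko retina libraries, with log2 differences from -0.68 to -0.61 over all libraries left out, and in rods it was lost without a variance trend (adjusted p = 0.0784). With at least 10 reads in every library, rods against retina gave 9526 calls in control and 9651 in Pkm2Rodko, among 12918 genes tested. The block that pairs rods with retina changed no call of the 10 genes. For the ratios, the paired exchange of labels, added after the data were seen, left the differences of Prps2 over Prps1 (-4.62), G6pdx over H6pd (3.79), Tkt over Taldo1 (-3.16), Rpe over Rpia (1.01) and oxidative over non-oxidative genes (0.78) short of the threshold after adjustment (adjusted p = 0.188). For the difference of genotype effects DESeq2 called 1 gene.

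Only differences near 0 changed sign. With scaling by total reads the interaction was -0.0183 for Pgd, -0.00483 for Tkt and -0.0293 for Taldo1, with edgeR -0.00372 for Pgd and -0.0175 for Taldo1, with RLE scaling -0.00878 and with DESeq2 -0.00935 for Taldo1. The other sign changes came from leaving out 1 library. In rods the genotype differences then ranged from -0.0176 to 0.0476 for G6pdx, -0.0808 to 0.16 for Pgls, -0.0462 to 0.00230 for Pgd, -0.0217 to 0.13 for Rpe, -0.0238 to 0.23 for Rpia, -0.14 to 0.0612 for Taldo1, -0.0227 to 0.0501 for Prps1 and -0.21 to 0.27 for Prps2. In retina they ranged from -0.0586 to 0.000478 for Pgd, -0.0530 to 0.00718 for Taldo1 and -0.18 to 0.0242 for Prps2. The interaction ranged from -0.0468 to 0.0331 for G6pdx, -0.26 to 0.0206 for Pgls, -0.0146 to 0.0402 for Pgd, -0.14 to 0.0496 for Rpe, -0.24 to 0.0101 for Rpia, -0.0275 to 0.0933 for Tkt, -0.11 to 0.0966 for Taldo1 and -0.16 to 0.35 for Prps2. Rpia in control rods against retina ranged from -0.12 to 0.0977. The ratio of Pgd to G6pdx ranged from -0.0754 to -0.0310 on the log2 scale. The cause of these changes was not tested. Depth limits H6pd and Prps2 in rods most, at 7 to 40 reads per library.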

Other observations

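Xist, which is transcribed from the inactive X chromosome, was read in all 12 libraries, with 470 to 952 reads in retina and 24 to 296 in rods. Of the Y-linked transcripts, Ddx3y, Eif2s3y, Uty and Kdm5d each had 0 reads in control replicates 1 and 2 of both fractions and were read in the other 8 libraries. Kdm5d had 48 reads in control rod replicate 3 and 184 in the retina library of the same number. Libraries with Xist and Y-linked reads together were thus present in both genotypes.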
